A study of Mus musculus with 14 samples.

Results

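The heat shock protein genes, Hspa1a, Hspa1b, Hspa8, Hsph1, Dnaja1, Dnajb1, Hspb1, Hsp90aa1, Hspd1 and Hspe1, were followed in the liver of Apoe-deficient mice that ate a Western diet without or with erythrodiol, a triterpene alcohol of olive. They were taken from the gene table by symbol, are 10 of its 17552 genes, and all 10 had the minimum of 100 counts in the groups together that 13291 genes reached. Both groups were male mice of the C57BL/6 strain, 8 weeks old per the labels and lacking apolipoprotein E, the ligand by which the liver takes up lipoprotein remnants. Such mice develop fatty liver. The controls ate the Western diet alone and the treated mice ate it with 10 mg/kg of erythrodiol, for 8 weeks per the labels. The study's methods give a longer period. Mice cannot have been 8 weeks old at sampling after 8 weeks on the diets. The methods give about this age for the mice used, so it may be their age at the start. Since labels and methods differ on the period, their age at sampling was not known exactly. Each group had 7 libraries, each made from liver RNA pooled over a few mice, and which mice entered a pool was not given. For each gene there was 1 value per group, the estimated read count summed over the 7 libraries, so no spread between libraries was known and no difference could be tested. The 95% intervals given with ratios and levels cover counting error only, not the spread between pools or mice.

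Heat shock proteins are chaperones that hold, fold or refold other proteins. HSP70 proteins bind exposed stretches of unfolded chains in a cycle of ATP use, J-domain proteins bring them clients, HSP110 proteins exchange their nucleotide, HSP90 acts on late folding steps of kinases and receptors, and small heat shock proteins hold unfolded chains without ATP. The inducible members are switched on by heat shock factor 1, which binds heat shock elements, inverted repeats of the unit GAA and its complement TTC, in their promoters.

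With erythrodiol, 3 of the 10 genes were higher by 1.5-fold or more. They were Hspa1b, the stress-inducible HSP70, at 1.79-fold, Hsph1, an HSP110, at 1.56-fold, and Hspb1, a small heat shock protein, at 1.53-fold. Hspe1, the 10-kDa lid of the mitochondrial chaperonin, was 1.61-fold lower, while Hspd1, which forms the barrel that this lid closes, was 1.24-fold higher. The other 6 genes, Hspa1a, Hspd1, Hspa8, Dnajb1, Hsp90aa1 and Dnaja1, differed by less than 1.5-fold. Among all 13291 genes, 2.55% were higher and 3.14% were lower by 1.5-fold or more, which is 339 and 417 genes. That split leant further to lower genes under other scalings, with 115 higher and 819 lower when ratios were centred on the median gene, which moves every log2 ratio down by 0.16, and 163 and 653 when the 50 genes of most counts were left out of the totals. Relative to genes of like length, described further on, 135 genes were higher and 465 lower. Under either of the first 2 of these scalings Hspa1b was the 1 member still higher by 1.5-fold, Hspe1 was still lower, and no member changed the side of 1 on which its ratio lay. In whole liver, fewer cells of a type and less RNA per cell cannot be told apart.

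The promoters of the 4 genes past 1.5-fold are shown because heat shock elements are the sequence by which the family is known to be switched on. Each is the stretch of 250 bases before the start site in the RefSeq promoter windows on GRCm38.p6, written 5′ to 3′ on the strand of the gene, and capitals mark GAANNTTC or TTCNNGAA, a pair of neighbouring units of a heat shock element. The stretches are chr17:34959239-34959488 on the minus strand for Hspa1b, chr5:149636337-149636586 on the minus strand for Hsph1, chr5:135887669-135887918 on the plus strand for Hspb1 and chr1:55087898-55088147 on the plus strand for Hspe1.
Hspa1b: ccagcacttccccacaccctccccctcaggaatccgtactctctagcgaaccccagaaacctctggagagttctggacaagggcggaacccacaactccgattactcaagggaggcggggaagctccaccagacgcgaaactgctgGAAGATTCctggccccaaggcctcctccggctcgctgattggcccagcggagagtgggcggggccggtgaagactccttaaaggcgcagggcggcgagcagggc
Hsph1: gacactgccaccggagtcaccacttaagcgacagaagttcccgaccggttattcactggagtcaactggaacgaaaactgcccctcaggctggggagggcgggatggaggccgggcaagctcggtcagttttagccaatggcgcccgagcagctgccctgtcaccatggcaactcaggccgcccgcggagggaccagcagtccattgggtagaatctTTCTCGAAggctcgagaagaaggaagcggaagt
Hspb1: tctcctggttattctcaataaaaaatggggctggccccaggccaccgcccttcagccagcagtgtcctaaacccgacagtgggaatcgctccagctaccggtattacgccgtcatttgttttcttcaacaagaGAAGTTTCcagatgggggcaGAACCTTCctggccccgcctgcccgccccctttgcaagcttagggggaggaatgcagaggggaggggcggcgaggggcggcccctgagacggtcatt
Hspe1: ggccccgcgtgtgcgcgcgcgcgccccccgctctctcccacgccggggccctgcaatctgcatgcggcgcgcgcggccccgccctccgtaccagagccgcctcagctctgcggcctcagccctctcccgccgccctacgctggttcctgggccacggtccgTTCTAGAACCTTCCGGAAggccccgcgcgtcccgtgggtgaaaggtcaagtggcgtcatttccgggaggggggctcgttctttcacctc

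The table held windows from 250 bases before to 50 bases after the start for 8 of the 10 genes, and none for Hspa8 and Hsp90aa1. A pair of units, searched as GAANNTTC or TTCNNGAA, which each read the same on both strands, was found for 7 of these 8 genes. Of all 27025 genes with a window, 17.0% held such a pair. The exception was Dnajb1, whose 2 windows held none of these letters. Hspa1a and Hspa1b each had 1 pair 104 bases before the start, in windows that differed at 4 of 300 bases. Hspb1 had pairs 117 and 97 bases before its start, and Dnaja1 had 1 pair 124 bases before the start of the first of its 3 windows. In the first of its 2 windows, of which the part before the start is shown above, Hsph1 had a pair 33 bases before the start. A run of 3 alternating units begins 36 bases after that start. From the start of the second window of Hsph1 the same pair lies 54 bases before and the run begins 15 bases after. Runs of 3 alternating units, 2 overlapping pairs in a row, were found for 3 of the 8 genes, Hsph1, Hspd1 and Hspe1, against 0.662% of all genes with a window. These are matches of letters and not measured binding.

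**Figure D1:**
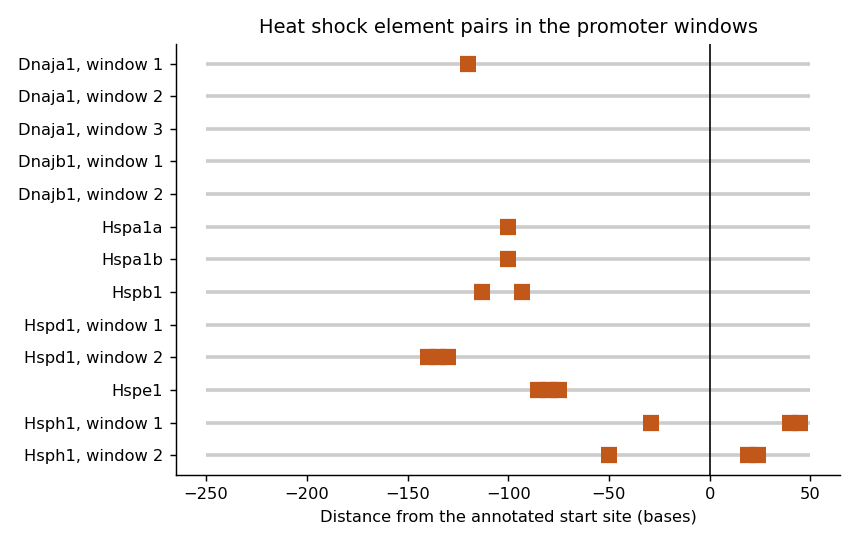
Positions of heat shock element pairs (bars of 8 bases, overlapping pairs run together) in the promoter windows of 8 heat shock protein genes, as distance in bases from the annotated start site, with 1 line for each window. Pairs lie before the start for Hspa1a, Hspa1b, Hspb1 and Hspe1, before it in only 1 window each of Hspd1 and Dnaja1, on both sides of it for Hsph1, and in neither window of Dnajb1.

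Hspd1 and Hspe1 lie head to head on chromosome 1 and share 1 element. The run TTCTAGAACCTTCCGGAA, chr1:55088059-55088076 on the plus strand, begins 89 bases before the start of Hspe1 and, read on the minus strand as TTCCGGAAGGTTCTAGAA, 144 bases before the inner of 2 annotated starts of Hspd1. The window of the outer start of Hspd1 held no pair. The inner start and the start of Hspe1 are 216 bases apart. The RefSeq spans of the genes also overlap by 96 bases, from 55088148 to 55088243. Whether reads were assigned by strand was not given. The overlap is shorter than the authors' paired reads of 100 bases, and the count sums of both genes were whole numbers. The part of the overlap in the counts was not tested.

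Levels between genes were compared per length, in CPM, counts per 1000000 counts of the group, and per kilobase of gene length. In the control group Hspa8, the constitutive HSP70 of the cytosol, stood highest with 455 CPM per kilobase, or 117595 counts over 2104 bases. Hspe1 followed with 144, Hspd1 with 116, Hsp90aa1 with 64.9, Dnaja1 with 54.9 and Hspb1 with 25.1 CPM per kilobase. Hsph1 at 7.77, Dnajb1 at 5.90, Hspa1b at 3.50 and Hspa1a at 0.383 CPM per kilobase formed the low end. With erythrodiol the order was the same but for Hspd1, at 143 CPM per kilobase, and Hspe1, at 89.1, which changed places. At the low end the counting intervals of Dnajb1, 6.76 with 6.50 to 7.03 CPM per kilobase, and Hspa1b, 6.27 with 6.01 to 6.54, overlapped in the erythrodiol group, so that this step of the order was not resolved by counting alone. Summed over the 10 genes, the level was 1792 CPM in the control and 2023 CPM with erythrodiol, 0.179% and 0.202% of all counts. The sum was 1.13-fold higher, close to the median gene at 1.12-fold. Hspa8 alone made up 53.4% of this sum in the control and 56.8% with erythrodiol.

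**Figure D2:**
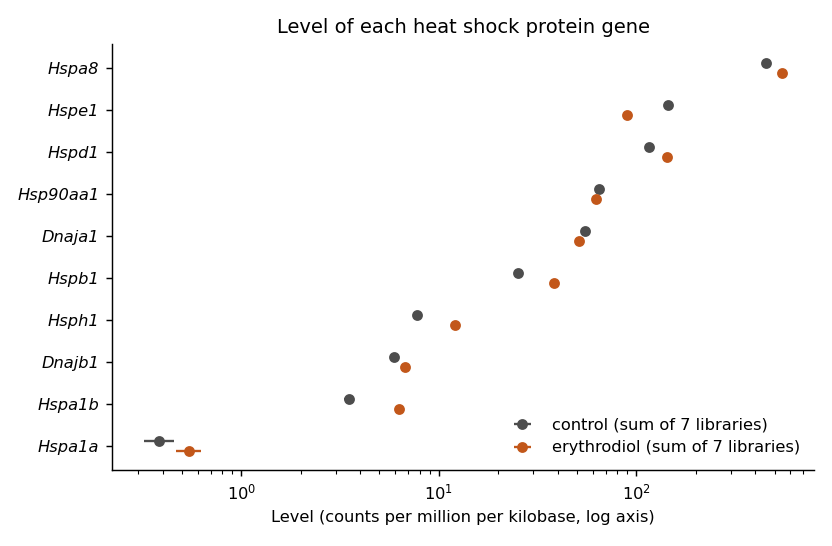
Level of the 10 heat shock protein genes in CPM per kilobase (log axis) in the control and erythrodiol groups, each point the sum of 7 libraries with its 95% counting interval. Levels run from Hspa1a, at 0.383 in the control, to Hspa8, at 546 with erythrodiol, and Hspd1 and Hspe1 exchange places between the groups.

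The ratio of the groups rose with gene length over the whole table. Genes shorter than 1000 bases had a median log2 ratio of -0.27 over 862 genes, and genes longer than 3000 bases one of 0.25 over 6230 genes. Each member was therefore also set beside the 500 genes nearest to it in length. Only for Hspe1 and Hspb1, the shortest members with 788 and 913 bases, was the median log2 ratio of these neighbours below 0, at -0.23 and -0.17. For the other 8 members it lay above 0, up to 0.21 for Dnaja1 and Hsph1, and beside its neighbours Hsph1, at 0.43, was no longer past 1.5-fold. What makes the ratio move with length was not tested.

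**Figure D3:**
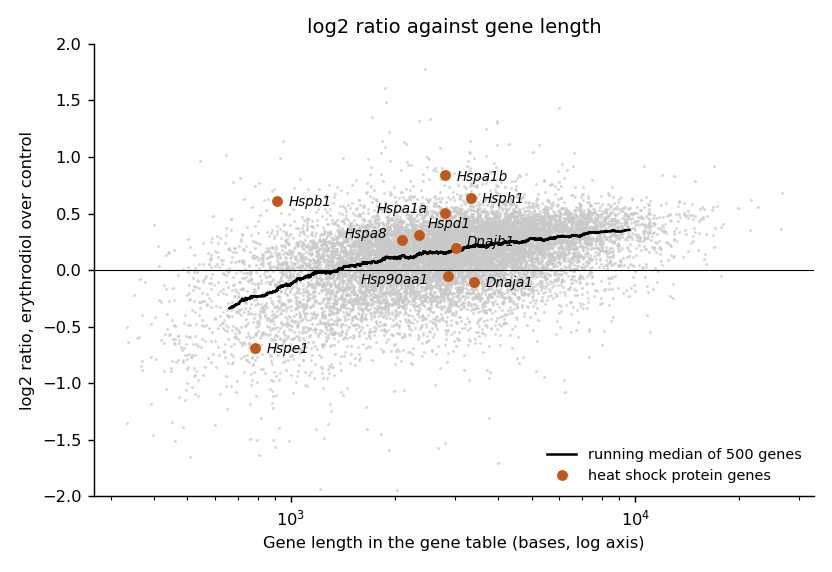
The log2 ratio of erythrodiol to control against gene length in bases (log axis) for genes of 100 counts or more over both groups, with the 10 heat shock protein genes named, the running median of 500 genes as a line, and 11 genes beyond the vertical axis not drawn. Hspb1 lies far above the genes of its length, while Hspe1 lies below the line but within the cloud of short genes.

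Among the HSP70 and HSP110 genes, Hspa1b and Hsph1 had larger ratios than Hspa8, the constitutive one, beyond counting error, while the interval of Hspa1a held the ratio of Hspa8. Hspa1b, at chr17:34956429-34959238, had 1210 counts in the control group against 2198 in the erythrodiol group, or 9.85 and 17.6 CPM. Its ratio was 1.79 with an interval of 1.67 to 1.92, and only 2 of its 500 neighbours in length were higher. Hspa1a, at chr17:34969359-34972156, encodes a nearly identical protein and had far fewer counts, 132 in the control and 189 with erythrodiol, for a ratio of 1.42 with an interval of 1.12 to 1.78. Of the stretches of 100 bases in their annotated transcripts, 48.6% of those of Hspa1a and 49.9% of those of Hspa1b are also found in transcripts of other genes, mainly of each other. Their estimated counts rest on how the counting program shared such reads, and neither had whole numbers, while the other 8 members did. Their sum does not rest on how reads were shared between them, and was 1342 counts in the control and 2387 with erythrodiol, 1.75-fold higher. Hsph1, at chr5:149616843-149636498, shares no such stretch with another gene. Its counts were 3176 in the control and 5024 under erythrodiol, giving a ratio of 1.56 (1.49 to 1.63), and 18 of its 500 neighbours in length were higher. Hspa8, at chr9:40801276-40805202, counted 117595 in the control against 143271 in the treated group, 1.20-fold higher, and 130 of 500 genes of like length were higher. The level of Hspa8 per length was 130 times that of Hspa1b in the control and 87.0 times with erythrodiol.

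The J-domain genes stood near or below the genes of their length. Dnajb1, at chr8:83608175-83612653, is strongly induced by heat and works with HSP70 on aggregated proteins. Its 2188 control counts stood against 2545 in the treated group, for a ratio of 1.15 with bounds of 1.08 and 1.21. Its 500 neighbours in length had 268 genes lower and 232 higher, so it stood at their middle. Dnaja1, at chr4:40722468-40734965, a J-domain protein of the cytosol that also serves HSP70, went from 22992 control counts to 21714 in treated mice, at a ratio of 0.931 with bounds of 0.914 and 0.948. Of its neighbours in length 445 were higher. Hsp90aa1, the inducible HSP90 of the cytosol at chr12:110691036-110696395, had 22721 and 22179 counts, a ratio of 0.962 with an interval of 0.944 to 0.980, and 397 of its neighbours in length were higher. Hsp90ab1, the constitutive HSP90 and not among the 10, had 74652 control counts and 107440 in the treated group, a log2 ratio of 0.50. Per length Hsp90ab1 was 3.74 times Hsp90aa1 in the control and 5.51 times with erythrodiol.

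Hspb1, at chr5:135887919-135889563, is a small heat shock protein that also acts on actin filaments. The control sum was 2821 counts and the erythrodiol sum 4374, or 23.0 and 35.1 CPM, for a ratio of 1.53 with an interval of 1.46 to 1.60. Only 9 of 500 genes of like length were higher, and relative to their median its log2 ratio was 0.79, the highest of the 10 members. Of the stretches of 100 bases in its transcripts, 44.0% are also in the pseudogene Hsp25-ps1, which is not in the gene table. Stretches shared with other GENCODE genes, none of which is in the gene table, made up 38.0% for Hsp90aa1, 28.2% for Hspa8, 23.4% for Hspd1, 10.0% for Hspe1 and 9.21% for Dnaja1, and there were none for Dnajb1. Reads from them can be counted for the wrong gene.

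The partners of the mitochondrial chaperonin differed in opposite directions. Hspd1, at chr1:55077833-55088243, had sums of 33423 and 42022 counts in control and treated livers, for a ratio of 1.24 between bounds of 1.22 and 1.26. Hspe1, at chr1:55088148-55091317, had sums of 13911 and 8753 counts, for a ratio of 0.620 between bounds of 0.604 and 0.637. Per length, Hspe1 stood at 1.24 times Hspd1 in the control and at 0.621 times with erythrodiol. The gap was smaller beside genes of like length. Relative to genes of like length the log2 ratio was -0.46 for Hspe1 and 0.17 for Hspd1, and 74 of the 500 neighbours of Hspe1 were lower still, so that it was not past 1.5-fold on this scale. Among the 500 genes nearest to Hspe1 in counts instead, 13 were lower.

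**Figure D4:**
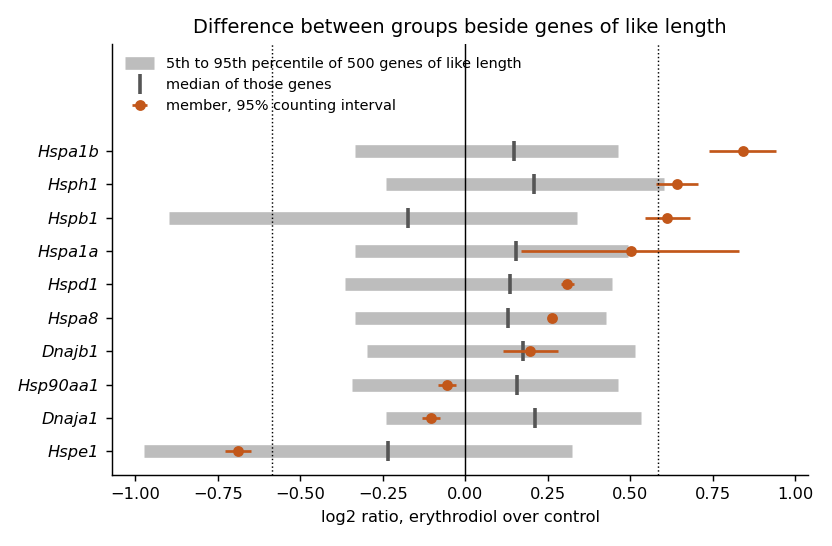
The log2 ratio of erythrodiol to control for each member with its 95% counting interval, beside the median and the 5th to 95th percentile of the 500 genes nearest in length, with dotted lines at 1.5-fold. Hspa1b, Hsph1, Hspb1 and, by a small margin, Hspa1a lie above the range of genes of like length, but the intervals of Hsph1 and Hspa1a reach into it. Hspe1, although past 1.5-fold, lies within the range.

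Over the 10 genes the median log2 ratio was 0.29, beside 0.16 over all 13291 genes. Of the 10, 7 had a ratio over 1, as did 71.2% of all genes. Relative to genes of like length the median of the members was 0.15, again with 7 above 0 and 3 below, and the 3 below were Dnaja1, Hsp90aa1 and Hspe1. On that scale Hspb1 and Hspa1b were past 1.5-fold. Because a group value is a sum, 1 library could in principle carry a difference. Taking the largest library of a group, for Hspa1b 1 erythrodiol library would have needed 6.39 times the control level, with the other 6 at that level, to give the whole difference, while for Hsph1 it would have needed 4.82 times and for Hspb1 4.61 times. For Hspe1, 1 control library would have needed 4.55 times the erythrodiol level. A smaller library would have needed more. Whether any did cannot be read from sums.

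Other chaperone genes were described from lists that leave out the 10 members. In the other HSP70 and HSP110 genes all 9 had a log2 ratio above 0, or 5 of 9 when ratios were centred on the median gene, none was past 1.5-fold, and the median was 0.19, with Hspa13 lowest at 0.02 and Hspa2 highest at 0.52. The ER form Hspa5 stood at 0.12 and the mitochondrial form Hspa9 at 0.31. Trap1, the mitochondrial HSP90, stood at 0.23. Relative to genes of like length 4 of the 9 other HSP70 and HSP110 genes were above 0, with a median of -0.05. Of 4 other genes listed as small heat shock proteins and with enough counts, none was past 1.5-fold, from Hspb8 at -0.01 to Hspb6 at 0.40. Relative to genes of like length 3 of these 4 were above 0, with a median of 0.41, beside 0.79 for Hspb1. On that scale Hspb11 stood at 0.55, Hspb6 and Cryab each at 0.41, and Hspb8 at -0.09. Of 33 other J-domain genes, 1 was lower by 1.5-fold and none higher, with a median of 0.16. When centred, 4 were lower, and without the 50 genes of most counts 2 were. That gene was Dnajc12, a cochaperone of the aromatic amino acid hydroxylases, with 3145 control counts and 1343 treated, a log2 ratio of -1.25. The highest of that list was Dnajc13, at 0.45.

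Of 27 cochaperones none was past 1.5-fold, with a median of 0.16. They ran from Hspbp1, an HSP70 nucleotide exchange factor, at -0.40 to Bag3, which links HSP70 to selective autophagy and is itself a heat shock gene, at 0.51 with 3444 control counts and 4974 treated. Among the heat shock factors and their regulators, Hsf1, the main heat shock factor, had 1675 and 2171 counts and a log2 ratio of 0.35, and Hsf2 one of 0.30. Hsbp1, which binds heat shock factor 1, was lowest at -0.07. The 1 gene of this list past 1.5-fold, Hsf2bp, had 82 control counts and 134 treated, a log2 ratio of 0.69 with an interval from 0.28 to 1.10, and when centred 0 genes of the list were past 1.5-fold.

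No gene of the lists for other compartments was past 1.5-fold on the scale of totals, while centring put 2 of the chaperonin and prefoldin genes lower by that much. The 14 genes of the cytosolic chaperonin and prefoldin had a median log2 ratio of -0.03, from Pfdn4 at -0.53 to Cct3 at 0.18. The 15 other mitochondrial chaperones and proteases had a median of 0.20, from Clpx at -0.18 to Hspa9, and the 17 ER chaperones one of 0.21, from Pdia6 at -0.27 to Hyou1 at 0.47. On the scale of totals Hspe1, at -0.69, thus lay below every gene of the mitochondrial list, the lowest of which was Clpx. Relative to genes of like length the gap was small, with Hspe1 at -0.46 and Yme1l1, then the lowest of the list, at -0.39.

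**Figure D5:**
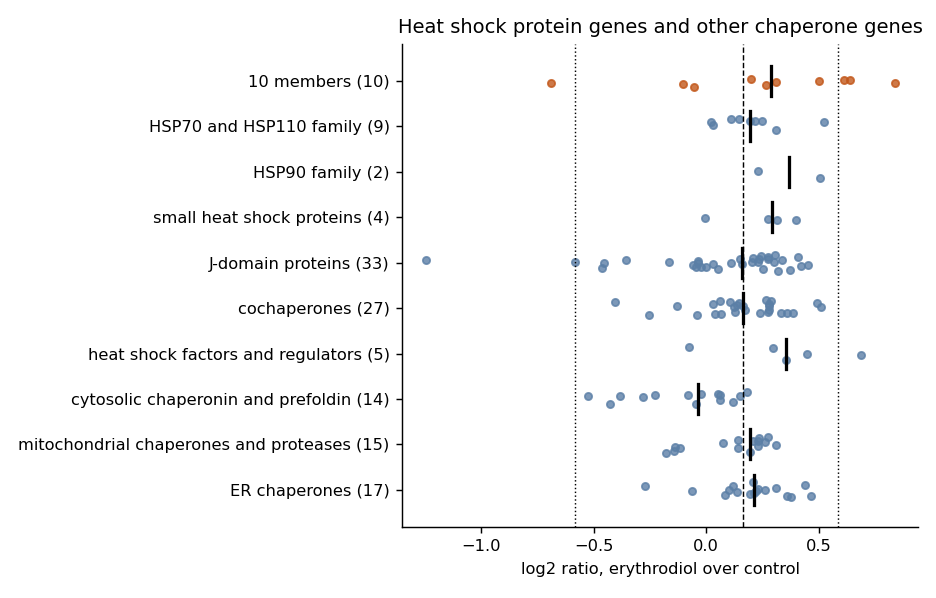
The log2 ratio of erythrodiol to control for the 10 heat shock protein genes and for other chaperone genes by list, 1 point a gene with the number of genes in brackets, a bar at each median, a dashed line at the median of all genes and dotted lines at 1.5-fold. Past the dotted lines lie 4 of the 10 members, Dnajc12 among the J-domain genes and Hsf2bp among the regulators.

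Several gene groups outside the chaperones differed between the same sums. Of 14 clock genes, which set daily rhythms, all 14 had a log2 ratio above 0, or 13 when centred on the median gene, with a median of 0.39, from Clock at 0.12 to Ciart at 0.91, and 4 were higher by 1.5-fold, among them Per1 at 0.67 and Per3 at 0.79. When centred 2 were, Ciart and Per3. Relative to genes of like length the median of the clock genes was 0.16, with 13 of 14 above 0. On that scale Ciart, at 0.85, was alone past 1.5-fold, with Per3 at 0.46 and Per1 at 0.42. The hour of sampling in each group was not given. Of 13 immediate early genes 1 was past 1.5-fold, Myc at 0.59, or 0 under either of the other scalings of the totals, and Atf3 was lowest at -0.20, with a median of 0.05. The cold-inducible genes Rbm3 and Cirbp stood at -0.36 and -0.03. Their part in the differences of the heat shock protein genes was not tested.

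The libraries were liver by their markers, since 9 hepatocyte markers summed to 114746 CPM in the control and 115947 CPM with erythrodiol, with a median log2 ratio of 0.18, from Fgb at -0.17 to Ass1 at 0.45. Of 9 Kupffer cell and macrophage markers, 6 were lower by 1.5-fold, led by Marco at -1.07, Adgre1 at -0.75 and Cd5l at -0.70, with Cd68 highest at 0.04, and their sum was 1138 CPM in the control and 749 CPM with erythrodiol. Of 4 neutrophil markers with enough counts 3 were lower, Prtn3 at -3.18, S100a8 at -1.19 and S100a9 at -1.11, with Csf3r highest at 0.01, and the 8 markers of the list summed to 22.4 and 14.6 CPM. Bile duct markers summed to 117 and 79.3 CPM, with 2 of 5 lower, Krt19 at -0.89 and Spp1 at -0.60. Sox9 was highest at -0.09. Red cell markers summed to 1264 and 929 CPM, with 2 of 5 lower, Hbb-bt at -1.03 and Hbb-bs at -0.72. Alas2 was highest at 0.05. Beside genes of like length, however, the median log2 ratio of the red cell markers was -0.06. On that scale Hba-a1 stood at 0.03, Hba-a2 at 0.01, Alas2 at -0.06, Hbb-bs at -0.38 and Hbb-bt, alone past 1.5-fold, at -0.69. The median on that scale was -0.62 for Kupffer cell and macrophage markers, -0.82 for neutrophil markers and -0.63 for bile duct markers. None of the endothelial and stellate cell markers was past 1.5-fold, and these ran from Clec4g at -0.26 to Kdr at 0.33 and from Dcn at -0.17 to Reln at 0.19. Relative to genes of like length their medians were -0.17 and -0.21, with 1 of 7 and 0 of 8 markers having a log2 ratio above 0. No marker of these lists was at 0 in either group. The part of these cells in the differences of the heat shock protein genes was not tested.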

How the data were processed

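Liver RNA pools of 7 control and 7 erythrodiol libraries were sequenced by the authors on a BGISEQ-500 with paired reads. The authors aligned clean reads with HISAT, assembled transcripts with StringTie, compared them with the annotation by Cuffcompare of Cufflinks, and made gene counts with Bowtie2 and RSEM, whose versions are not given in the sources used here. The deposited estimated counts are not normalized and are sums over the libraries of a group, since their totals, 122889032 and 124686047, match the read pairs that the libraries mapped to genes, 122887639 and 124690110. For each library the authors deposited counts of clean reads and mapping rates in percent. Clean reads lay between 34856340 and 55244294 in the control group and between 47669656 and 48058606 in the erythrodiol group. Rates of mapping to genes ran from 64.33 to 81.43% and from 72.96 to 76.13%, in that order. Rates to a unique gene ran from 51.36 to 67.12% and from 57.85 to 65.32%. The part of these differences in the ratios was not tested. The deposited table also holds a fold, p-value and q-value of the authors per gene, which were not used.

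Here each gene's sums were divided by the totals of the groups, and the log2 ratio was given an exact 95% binomial interval of the split of its counts. Genes of 100 counts or more over both groups, without the members, served as neighbours in length. Named genes were the members, the highest and lowest of each list, up to 3 past 1.5-fold in a direction, and Hsf1, Hsf2, Hspa5, Hsp90ab1, Hspa9 and Bag3. The result of 1 list of markers is not reported here. The members and lists were chosen with earlier results of these data known. Coordinates and promoter windows are those of RefSeq on GRCm38, the build of the deposited tables. Shared stretches were counted in the GENCODE transcripts. The ratios and intervals were tested on simulated data. Computation used scipy 1.17.1, pandas 2.3.3 and numpy 2.4.6 under Python 3.11.15, and plots matplotlib 3.10.9.

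Alternatives were centring on the median gene, totals without the 50 genes of most counts, a pseudocount of 1, minimum counts of 10 or none, folds of 2 and 1.25, 100 or 2000 neighbours in length, ratios relative to genes of like length, and Hspa1a and Hspa1b summed.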

Additional observations from a re-analysis of the deposited data

Results flagged for a closer look

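The mapping rate to genes of control replicate 3 was 64.33%, while the nearest other control library had 74.39%, a gap that is 0.588 of the range over the 7 control libraries. Chance marks about 1 in 20 groups of this size in this way. The gene sums of the control hold this library, and its part in the ratios of the heat shock protein genes was not tested.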

How the results depend on the processing

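The median log2 ratio of the 10 members, 0.29 as reported, was 0.12 when ratios were centred on the median gene and 0.19 when the 50 genes of most counts were left out of the totals, and under each of these scalings 1 member, Hspa1b, was higher by 1.5-fold. At a fold of 2, 0 members were higher and 0 lower, as against 0.218% and 0.549% of all genes. Relative to genes of like length 0 members were lower by 1.5-fold and 2 were higher. With a pseudocount of 1, minimum counts of 10 or none, and Hspa1a and Hspa1b summed, the median lay between 0.26 and 0.29. The numbers of members past 1.5-fold were then the same as reported. With 100 or 2000 neighbours only the median relative to genes of like length was computed, at 0.16 in both. Apart from the change in neighbours, for which single members were not looked at, no alternative turned the direction of a member's ratio.

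No paired analysis was possible because each gene has 1 summed value per group, so leaving out a library was not run either. Counting error is small at the depth of most members, with Hspa1a as the exception. The spread between pools is unknown.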

Other observations

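Outside the heat shock protein genes, the ratios of genes with and without a heat shock element pair in a promoter window were set side by side. Over 1507 other genes with a pair the median log2 ratio was 0.13, and 2.32% were higher and 4.05% lower by 1.5-fold, while over 9089 genes with a window and no pair the median was 0.17, with 2.22% higher and 2.89% lower. Of 54 other genes with a run of 3 alternating units, 0 were higher and 4 were lower by 1.5-fold, with a median of 0.20. These values are given as a description, with no test.

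Under the annotation term unfolded protein binding of the authors' tables, which held 74 genes including 6 members, 63 of the other genes had at least 100 counts. This list was chosen after the data were seen. Its median log2 ratio was 0.12, with 1 gene higher and 1 lower by 1.5-fold, or 1 and 5 when ratios were centred on the median gene and 1 and 3 without the 50 genes of most counts. The higher was Syvn1, a ubiquitin ligase of the endoplasmic reticulum, with 8878 counts in the control and 15118 with erythrodiol, and the lower was Pet100, an assembly factor of cytochrome c oxidase, with 2357 and 1419 counts.

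The transcripts assembled by the authors from these libraries held 1 coding transcript of a member, for Hsph1. It had 16 exons, all 15 of its junctions are in GENCODE, and 14 of its exons are there whole, while the outer ends of the first and the last differed.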
